A study of Mus musculus with 6 samples.

Results

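Imprinted genes are expressed mainly from the copy inherited from 1 parent. A list of 40 autosomal mouse genes of this kind, arranged by their chromosomal clusters, was read out of a comparison of embryonic tailbuds between wild-type mice and mice homozygous for Danforth's short tail. The members were listed by name, and no measured value enters the rule. Of the 40, 36 matched an identifier among the 37310 genes of the deposited counts by their symbol, and all 36 passed the filter on low counts. Kcnq1ot1, Snrpn, Rian and Mirg matched none and were not analysed here. Of the 36, 18 were classed as paternally expressed, 14 as maternally expressed and 4 (Grb10, Ddc, Blcap and Gnas) as dependent on the isoform or tissue. These classes were assigned to the gene, and whether each member is imprinted in the tailbud was not measured.

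The samples were 3 WT/WT and 3 Sd/Sd libraries of polyadenylated RNA from tailbuds at embryonic day 9.5, all on the outbred CD-1 background, with no other allele or treatment labelled. Sd, a spontaneous semidominant mutation, is known to place a transposable element upstream of Ptf1a, and the homozygotes are called mutants from here on. A library held the tailbud of 1 embryo or, where material was short, of 2. Which libraries were pooled, and whether they came from separate litters, is not stated, so a p-value here reflects only the variation among these 6 libraries, part of which may be technical. The counts do not separate parental copies, so they give the total output of each gene and not its allelic origin.

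Imprinted genes lie in clusters in which a control region, methylated on 1 parental chromosome only, sets which copy of each gene is transcribed. Many of them act on growth of the embryo and placenta: paternally expressed genes such as Igf2 tend to promote growth, and maternally expressed genes such as Igf2r, Cdkn1c and Phlda2 tend to restrain it. Long noncoding RNAs such as H19, Meg3 and Airn are part of these clusters. Magel2, Ndn, Mkrn3 and Peg12 belong to the paternally expressed region that corresponds to the human Prader-Willi region.

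Libraries held 41788978 to 62296689 counts, and the members took between 2.00% and 2.45% of them. Ptf1a, which checks the genotype labels, stood at 0.0237 to 0.0948 CPM (each gene's count relative to its library's total, adjusted with edgeR's TMM factors) in WT and 13.8 to 20.6 CPM in mutants (edgeR adjusted p = 3.17e-05). Tailbud and presomitic mesoderm markers summed to 530 to 1147 CPM, so the labelled tissue was present in each library. Mutant replicate 3 stood apart: somite markers summed to 104 CPM there and to 337 to 674 CPM in the other libraries. The members whose sign turned without this library are named with both values where the libraries are compared.

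No imprinted gene passed the test between genotypes. With edgeR's quasi-likelihood test and Benjamini-Hochberg adjustment over 15471 genes, 0 of 36 members had an adjusted p under 0.05. Of all genes tested 0.0582% did, 0.0388% with a higher and 0.0194% with a lower level in mutants. An unadjusted p under 0.05 was found for 3 members, Magel2, Rtl1 and Cdkn1c (2.9% of all genes), and DESeq2 called 1 member, Magel2, among 0.224% of all genes (0.125% higher in mutants). In 4 members the groups did not overlap, which was the case for 7.68% of all genes. Magel2, Rtl1 and Kcnq1 were higher in every mutant library (3.26% of all genes), and Cdkn1c was lower (4.42%). Most members had nearly the same level in both genotypes: 30 of 36 had a fitted change of less than 1.2-fold in either direction, as did 81.6% of all genes.

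**Figure D1:**
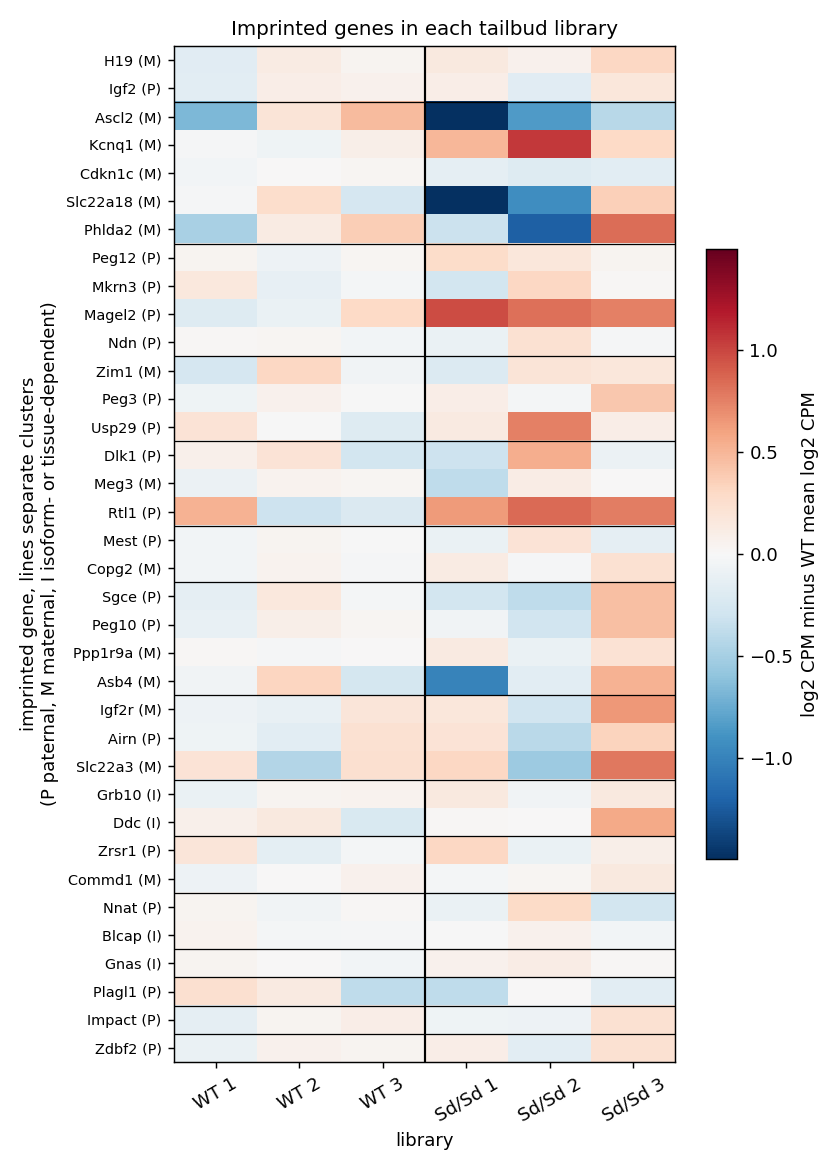
Each row is an imprinted gene, each column a library, and the colour is the log2 CPM of that library minus the WT mean, with lines between imprinted clusters. Magel2, Rtl1 and Kcnq1 are among the rows above the WT mean in all 3 mutant columns, and Phlda2, Slc22a18 and Asb4 differ most between mutant libraries.

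Magel2, an intronless gene whose protein belongs to the MAGE family and regulates ubiquitin ligases in endosomal protein recycling, had the smallest p of all members. It measured 32.1, 34.2 and 45.2 CPM in WT replicates 1 to 3. In mutant replicates 1 to 3 it measured 72.1, 65.2 and 62.1 CPM. Every mutant library was thus above every WT library. Magel2 (ENSMUSG00000056972.5, chromosome 7) averaged 37.2 ± 7.06 CPM in WT and 66.5 ± 5.14 CPM in mutants (SD, n = 3 each), a 1.79-fold higher fitted level. The log2 fold change was 0.84 (SE 0.13), with an unadjusted p = 1.57e-04 that ranked 13th among all genes tested (edgeR adjusted p = 0.186).

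The call on Magel2 depended on the method. DESeq2 gave an adjusted p = 1.55e-06, and edgeR gave an adjusted p = 0.0393 with no filter on low counts and 0.0361 without WT replicate 3, the highest WT library. Those settings called 0.0632% and 0.0189% of all genes. With libraries of the same number blocked together it was 0.135, where 0.0776% of all genes passed. Over all 14 alternatives the adjusted p ran from 1.55e-06 to 1.00 and the log2 fold change from 0.75 to 1.00. Without mutant replicate 3 the log2 fold change was 0.89 (SE 0.15, edgeR adjusted p = 0.238). Neuron markers, since Magel2 is known for its expression in neurons, summed to 77.2 to 81.8 CPM in WT and 67.2 to 79.2 CPM in mutants, with 0 of 9 tested markers called and Dcx, an X-linked gene, listed at 0. Their part in the level of Magel2 was not tested, and in whole tailbuds fewer cells of a type cannot be told apart from less RNA per cell.

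In the 3 tested imprinted neighbours of Magel2 the groups overlapped. Ndn, the adjacent gene, which encodes necdin, a related MAGE protein of postmitotic neurons, measured 132, 134 and 127 CPM in WT and 122, 153 and 129 CPM in mutant replicates 1 to 3. Mkrn3, a makorin ring finger gene on the other side of Magel2, measured 5.03, 4.14 and 4.41 CPM in WT and 3.74, 5.61 and 4.55 CPM in mutants. In both genes mutant replicate 1 lay below and mutant replicate 2 above all WT libraries, while mutant replicate 3 fell within the WT range. Their log2 fold changes were 0.04 (SE 0.09) for Ndn and 0.04 (SE 0.21) for Mkrn3 (edgeR adjusted p = 1.00 for both), and without mutant replicate 2 both were negative, at -0.06 and -0.13. Mkrn3 was also negative without WT replicate 2, at -0.02.

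Peg12, a paternally expressed gene 2 places from Magel2, had the smallest p of the 3. It measured 43.2, 39.8 and 43.0 CPM in WT and 50.6, 47.0 and 43.1 CPM in mutant replicates 1 to 3. The lowest mutant library fell among the WT values, so the groups overlapped by a small margin (log2 fold change 0.16, SE 0.08, edgeR adjusted p = 1.00). Within 5 places of Magel2 in the gene order 6 genes other than it were tested, and 0 passed. Of these, the nicotinic receptor subunit Chrna7 had a fitted log2 difference of -0.26 (SE 0.17), and the noncoding model Gm9801 and the pseudogene Atp5l-ps1 averaged 0.164 and 0.226 CPM in WT. Gm38393, a gene model whose exons overlap those of the unmatched Snrpn, measured 80.7 ± 8.68 CPM in WT and 80.0 ± 1.94 CPM in mutants (SD, n = 3 each, log2 fold change -0.01, SE 0.09).

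**Figure D2:**
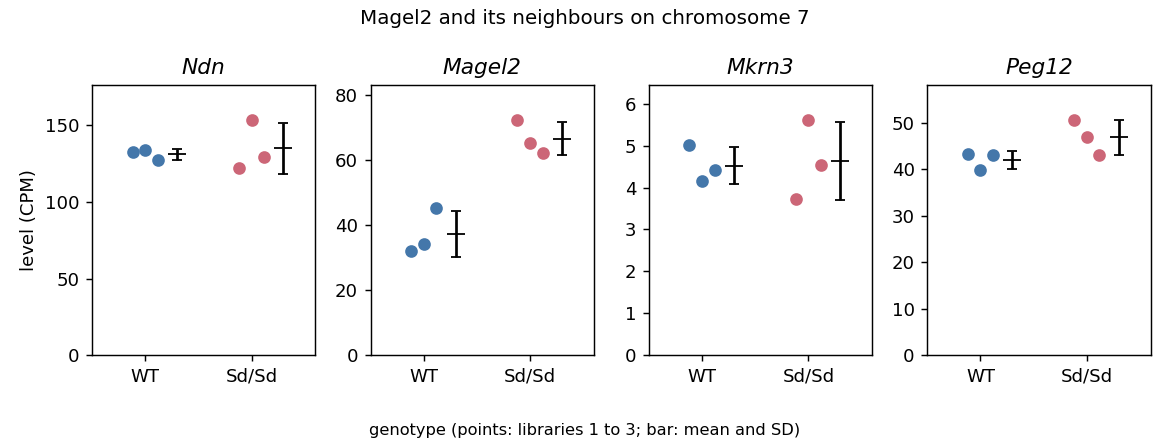
Levels in CPM of Ndn, Magel2, Mkrn3 and Peg12, in their order on chromosome 7, with a point per library and the mean and SD beside them. Only in the Magel2 panel do the mutant points (62.1 to 72.1 CPM) lie clear of the WT points (32.1 to 45.2 CPM).

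The ratio of Magel2 to Ndn counts within a library, which does not depend on the scaling between libraries, was 0.243, 0.256 and 0.356 in WT replicates 1 to 3. It was 0.592, 0.426 and 0.480 in mutant replicates 1 to 3. The groups did not overlap, and the exact permutation p (two-sided) was 0.1, the smallest that 3 against 3 libraries allow. As Magel2 was singled out with its change already known, this ratio describes the separation of the pair and is no independent evidence of it.

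The 250 bases just before the start of Magel2 and of its tested imprinted neighbours are shown because these genes share a region, and in it the genotypes were separated by the level of Magel2 but not by those of the others. They are RefSeq sequences on GRCm38.p6, a later build than the mm9 named in the submitters' processing notes, and are read 5′ to 3′ on the strand of the gene with each CG dinucleotide, the substrate of imprint methylation, in capitals. Magel2 lies on the plus strand with this window at chr7:62376729-62376978, and Ndn on the plus strand with its window at chr7:62348027-62348276. Mkrn3 and Peg12 lie on the minus strand with windows at chr7:62420154-62420403 and chr7:62464511-62464760.
Magel2: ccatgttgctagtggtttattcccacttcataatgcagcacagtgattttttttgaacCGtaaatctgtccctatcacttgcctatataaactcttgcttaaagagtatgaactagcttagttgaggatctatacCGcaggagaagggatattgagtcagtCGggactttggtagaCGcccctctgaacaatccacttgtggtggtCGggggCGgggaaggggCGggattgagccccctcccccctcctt
Ndn: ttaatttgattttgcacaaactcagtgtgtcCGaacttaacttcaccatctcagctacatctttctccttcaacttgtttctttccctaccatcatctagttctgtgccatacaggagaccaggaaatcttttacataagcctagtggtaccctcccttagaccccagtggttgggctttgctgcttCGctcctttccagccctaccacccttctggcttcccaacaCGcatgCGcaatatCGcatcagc
Mkrn3: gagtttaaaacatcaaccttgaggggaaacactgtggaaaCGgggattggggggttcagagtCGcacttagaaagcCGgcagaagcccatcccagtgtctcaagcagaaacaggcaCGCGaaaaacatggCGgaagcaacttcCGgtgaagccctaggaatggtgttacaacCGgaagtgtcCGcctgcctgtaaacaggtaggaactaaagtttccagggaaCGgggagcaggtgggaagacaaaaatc
Peg12: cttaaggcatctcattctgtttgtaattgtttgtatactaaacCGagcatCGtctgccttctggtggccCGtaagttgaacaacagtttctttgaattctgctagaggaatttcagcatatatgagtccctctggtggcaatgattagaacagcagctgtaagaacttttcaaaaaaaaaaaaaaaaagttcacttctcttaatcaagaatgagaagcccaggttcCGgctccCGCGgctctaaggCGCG

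These windows held 7 CG dinucleotides for Magel2, 5 for Ndn, 10 for Mkrn3 and 8 for Peg12. The motif CG reads the same on both strands and was counted without overlap. Of 32851 RefSeq windows of the same length, 46.3%, 55.6%, 37.8% and 43.0% held at least as many, so none of the 4 genes stood out by this count. The median was 6 over all windows and 10 over the 51 windows of the 33 members that had one. No methylation was measured here.

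H19 and Igf2 share enhancers and are expressed from opposite parental copies. H19, a noncoding RNA and the member with the highest level, measured 5638, 6858 and 6519 CPM in WT replicates 1 to 3. In mutants it measured 6979.5, 6597 and 7846 CPM. The groups overlapped, since 1 mutant library lay below the highest WT library (log2 fold change 0.17, SE 0.09, edgeR adjusted p = 1.00). H19 was highest in mutant replicate 3, and without it the log2 fold change was 0.10 (SE 0.09); without WT replicate 1, the lowest, it was 0.10 (SE 0.09).

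Igf2, which encodes a fetal growth factor, measured 3447, 4098 and 4012 CPM in WT and 4106, 3421 and 4325 CPM in mutant replicates 1 to 3. The mutant libraries held both the highest and the lowest value (edgeR's fitted log2 difference 0.04, SE 0.10, adjusted p = 1.00). The sign turned without mutant replicate 3 (-0.03) or WT replicate 1 (-0.03). Igf2os, an antisense gene model whose exons overlap those of Igf2, had a log2 fold change of 0.12 (SE 0.10). The library kit keeps strand, but whether the counting used it is unknown, so reads of Igf2 and Igf2os may be shared.

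H19 was also compared with Igf2 within each library. The ratio of H19 to Igf2 counts was 1.64, 1.67 and 1.62 in WT replicates 1 to 3 and 1.70, 1.93 and 1.81 in mutant replicates 1 to 3. All mutant ratios lay above all WT ratios, with a mean log2 difference of 0.14 and an exact permutation p (two-sided) of 0.1, the smallest possible. This ratio was looked at after the levels had been seen, as 1 of 36 pairs of members within a cluster; with 36 comparisons at a smallest possible p of 0.1, no pair can pass an adjusted threshold. In 7 of the 36 pairs the ratios did not overlap between genotypes. The same held for 8.44% of all pairs of adjacent tested genes, an unlike set, since the 36 pairs are all combinations within a cluster. Of the 7 pairs 3 hold Magel2, 2 hold Kcnq1 and 1 holds Rtl1, so they are not separate observations. The levels of these 3 genes did not overlap between groups either.

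**Figure D3:**
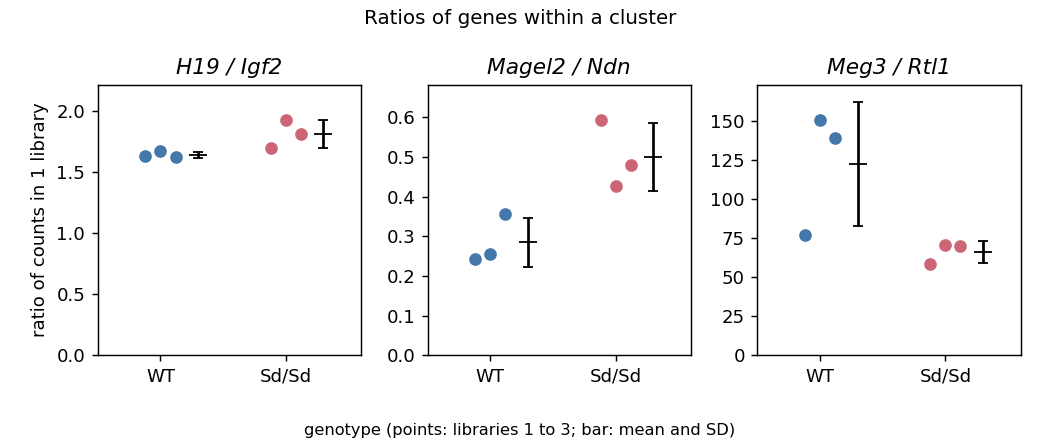
Ratio of counts of 2 genes of a cluster within each library, with a point per library and the mean and SD beside them. The mutant points lie above the WT points for H19 over Igf2 (1.70 to 1.93 against 1.62 to 1.67) and Magel2 over Ndn, and below them for Meg3 over Rtl1.

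The Kcnq1 cluster, the next one along chromosome 7 from H19 and Igf2, held members with positive and with negative log2 fold changes. Cdkn1c, which encodes the cell cycle inhibitor p57, measured 172, 179 and 182 CPM in WT and 162, 156 and 160 CPM in mutant replicates 1 to 3. Each mutant value was lower than each WT value, by a small amount against a small spread. The log2 fold change was -0.16 (SE 0.06, unadjusted p = 0.0242, edgeR adjusted p = 1.00), and it ran from -0.17 to -0.14 over all alternatives.

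Kcnq1, a potassium channel gene whose introns hold the start of the noncoding Kcnq1ot1, was near the lower limit of measurement. It measured 0.815, 0.795 and 0.876 CPM in WT and 1.16, 1.72 and 1.02 CPM in mutants, without overlap (log2 fold change 0.66, SE 0.31, edgeR adjusted p = 1.00). These levels rest on 37 to 108 counts per library, and reads of Kcnq1 and of Kcnq1ot1, which lies on the opposite strand, cannot be told apart with certainty here. Mutant replicate 2 was the highest, and without it the log2 fold change was 0.40.

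Phlda2 and Slc22a18, neighbours in the Kcnq1 cluster, varied more among mutant libraries than between genotypes. Phlda2, a gene known for limiting placental growth, measured 30.8, 46.9 and 55.9 CPM in WT and 34.7, 18.6 and 77.3 CPM in mutant replicates 1 to 3. The highest mutant library was 4.17 times the lowest, the widest such ratio of any member tested. Slc22a18, a transporter gene, ran from 0.679 to 2.45 CPM in mutants and from 1.61 to 2.29 CPM in WT, on 28 to 121 counts a library. Ascl2, a transcription factor gene of the trophoblast, was the member with the most negative log2 fold change (-0.91, SE 0.47), from 0.341 to 0.758 CPM in WT and 0.194 to 0.408 CPM in mutants, on 8 to 33 counts a library. Of 11 trophoblast markers, 2 were tested and 0 passed: Hand1, which is also known from lateral mesoderm, at 96.7 ± 22.8 CPM in WT and 105 ± 29.4 CPM in mutants (SD, n = 3 each), and Synb, below 1 CPM. The list summed to 73.5 to 119 CPM in WT and 71.5 to 125 CPM in mutants, nearly all of it Hand1, while Tpbpa, Ctsq and Prl2c2 were at 0 counts in all libraries. The part of such cells in these levels was not tested.

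In the Dlk1 and Meg3 cluster of chromosome 12, Rtl1 had the second smallest p of all members. Rtl1, a paternally expressed gene derived from a retrotransposon and needed in placental vessels and muscle, measured 5.14, 2.90 and 3.08 CPM in WT. In mutant replicates 1 to 3 it measured 5.56, 6.44 and 6.06 CPM, so WT replicate 1 lay just below the lowest mutant library and the other WT libraries well below it. The log2 fold change was 0.70 (SE 0.24, unadjusted p = 0.0185, edgeR adjusted p = 1.00). Without WT replicate 1 it was 1.02 (SE 0.21), and without mutant replicate 3 it was 0.69 (SE 0.27). It passed the threshold under none of the 14 alternatives. A maternally expressed antisense transcript that carries microRNAs overlaps Rtl1 and may share its reads.

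Dlk1 and Meg3, the leading paternally and maternally expressed genes of that cluster, did not separate the genotypes. Dlk1, which encodes a membrane protein related to Notch ligands, ran from 315 to 440 CPM in WT and from 308 to 557 CPM in mutants. Meg3, a noncoding RNA, ran from 396 to 436 CPM in WT and from 323 to 453 CPM in mutants. Both were highest in mutant replicate 2 and lowest in mutant replicate 1 (log2 fold changes 0.08, SE 0.25, and -0.07, SE 0.12). The ratio of Meg3 to Rtl1 counts was 77.1, 151 and 140 in WT and 58.2, 70.4 and 69.9 in mutant replicates 1 to 3, again without overlap.

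In the Peg3, Mest and Peg10 clusters, which hold abundant genes of mesoderm and placenta, the groups overlapped in all 9 members. Peg3, a paternally expressed zinc finger gene, measured 1448, 1587 and 1508 CPM in WT and 1619, 1485 and 1993 CPM in mutants (log2 fold change 0.17, SE 0.10). Mutant replicate 3 was the highest, and without it the log2 fold change was 0.04. Its neighbours Zim1, a maternally expressed zinc finger gene, and Usp29, a deubiquitinase gene below 2 CPM, followed with 0.04 (SE 0.16) and 0.36 (SE 0.31) on the log2 scale.

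Mest, a paternally expressed hydrolase-family gene of mesoderm, had the log2 fold change nearest to 0 of all 36 members, with 1805 to 2284 CPM in mutants around 1933 to 2045 CPM in WT (log2 fold change 0.00, SE 0.09). Copg2, which encodes a coat protein subunit and whose exons overlap those of Mest on the opposite strand, measured 70.8, 75.7 and 72.2 CPM in WT and 79.6, 72.2 and 85.0 CPM in mutants (log2 fold change 0.11, SE 0.08). Peg10, a retrotransposon-derived gene needed for the placenta, and Sgce, the sarcoglycan gene that starts beside it, were both highest in mutant replicate 3, at 2056 and 80.4 CPM, and lowest in mutant replicate 2, at 1235 and 45.4 CPM. Ppp1r9a, which encodes neurabin, measured 58.5, 57.3 and 58.1 CPM in WT and 63.5, 54.1 and 67.6 CPM in mutants (log2 fold change 0.09, SE 0.09). Asb4, of the same cluster, ran from 31.0 to 88.9 CPM in mutants.

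Members outside chromosome 7 that restrain growth factor signalling did not pass the test either. Igf2r, the maternally expressed receptor that clears IGF2, measured 566, 550 and 676 CPM in WT and 666, 487 and 932 CPM in mutants. Its positive log2 fold change (0.22, SE 0.25) rested on mutant replicate 3 and was -0.05 without it. Airn, the paternally expressed antisense RNA whose transcription silences the paternal Igf2r, had the same order of mutant libraries (21.0, 13.8 and 23.0 CPM), as did Slc22a3, a cation transporter gene of that cluster (2.77, 1.53 and 3.83 CPM). Grb10, an adaptor that restrains insulin and IGF receptors, measured 1794, 1977 and 1993 CPM in WT and 2121, 1855 and 2129 CPM in mutants (log2 fold change 0.08, SE 0.08), and its neighbour Ddc, which encodes a decarboxylase of amine synthesis, stayed below 10 CPM.

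The remaining members had small differences. Plagl1, a paternally expressed zinc finger factor that acts on other imprinted genes, measured 242, 227 and 159 CPM in WT and 158, 206 and 185 CPM in mutants (log2 fold change -0.19, SE 0.17), so WT replicate 3 lay among the mutant values, and over the fits that leave out 1 library the log2 fold change ran from -0.36 without it to -0.07 without WT replicate 1. Nnat, a paternally expressed neural gene inside an intron of Blcap, measured 189, 176 and 185 CPM in WT and 171, 223 and 151 CPM in mutants. Its log2 fold change was -0.01 (SE 0.13) and turned to 0.11 without mutant replicate 3. Gnas, which encodes a stimulatory G protein subunit and other isoforms, measured 1366, 1331 and 1296 CPM in WT and 1394, 1439 and 1341 CPM in mutants (log2 fold change 0.06, SE 0.06). Gnas thus overlapped through 1 library on each side.

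Commd1, which encodes a copper-handling protein, measured 63.9, 67.6 and 70.0 CPM in WT and 65.5, 68.6 and 74.5 CPM in mutants. Its exons overlap those of the paternally expressed splicing factor gene Zrsr1 on the opposite strand, so reads of Commd1 and Zrsr1 may be shared. Impact, a translational regulator, measured 54.6, 61.6 and 64.0 CPM in WT and 57.5, 57.1 and 70.4 CPM in mutants. Zdbf2, a paternally expressed zinc finger gene, measured 43.2, 48.6 and 47.7 CPM in WT and 49.9, 41.5 and 54.3 CPM in mutants. All 3 had their highest value in mutant replicate 3 and log2 fold changes of 0.04 to 0.06, and without that library all 3 were negative, at -0.00205 for Commd1, -0.07 for Impact and -0.03 for Zdbf2. Zrsr1 and Blcap had 0.10 (SE 0.16) and 0.01 (SE 0.08).

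Neither the paternally nor the maternally expressed members held a gene that passed the test, and their medians were both near 0. The median log2 fold change was 0.06 for the 18 paternally expressed members, 0.05 for the 14 maternally expressed members and 0.00 for all genes tested. A positive sign was found in 14 of 18 paternally expressed, 8 of 14 maternally expressed and all 4 isoform- or tissue-dependent members, against 49.9% of all genes. With so small a median, sign counts moved with single libraries. Without mutant replicate 3 the counts were 11 of 18 and 4 of 14, and the maternal median turned to -0.07. Without mutant replicate 1 they were 16 of 18 and 11 of 14, with medians of 0.10 and 0.11. Without mutant replicate 2 the paternal median was 0.13, and without WT replicate 1 the maternal median was -0.02. Paternally expressed members without Magel2 had a median of 0.06, and 15 of the 17 lay within 1.2-fold.

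**Figure D4:**
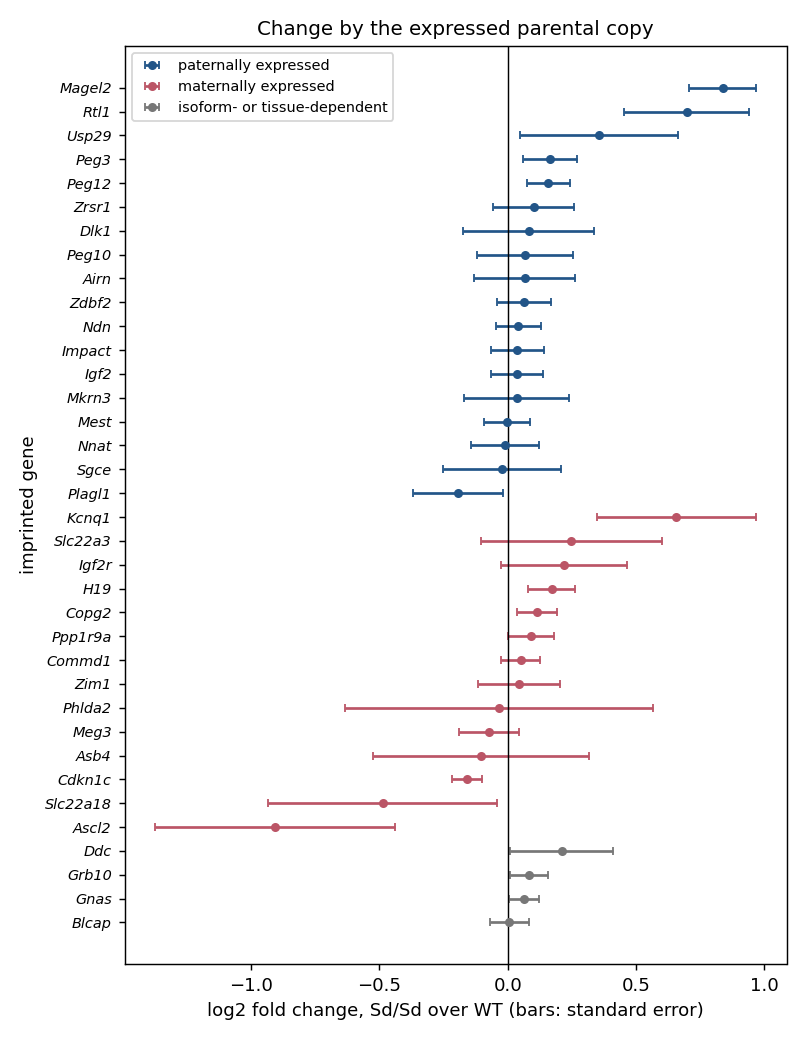
Fitted log2 fold change of each imprinted gene (Sd/Sd mutants over WT) with its standard error, grouped by the parental class assigned to it. Magel2 (0.84) and Rtl1 (0.70) lead the paternal group, and the maternal group runs from Ascl2 (-0.91) to Kcnq1 (0.66) around medians close to 0.

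Many members varied with the library. Mutant replicate 3 held the highest value of 18 of the 36 members, against 22.1% of all genes tested, and mutant replicate 2 that of 11, against 20.3%. The highest value in mutant replicate 3 went with the lowest in mutant replicate 2 in 9 members, namely Igf2, Phlda2, Sgce, Peg10, Ppp1r9a, Igf2r, Airn, Slc22a3 and Zdbf2, a pattern found in 7.67% of all genes. Mest, Nnat and Blcap showed the opposite order, as did 8.23% of all genes. Without mutant replicate 3 the log2 fold change turned sign in 11 of the 36 members. It turned from positive to negative in 9, namely Igf2, Zim1 (0.04 to -0.01), Peg10 (0.07 to -0.17), Igf2r, Airn (0.07 to -0.08), Slc22a3 (0.25 to -0.09), Commd1, Impact and Zdbf2, and from negative to positive in Mest (0.06 from nearly 0) and Nnat. Members that were negative with all libraries moved further down without it in the case of Slc22a18 (-1.19, SE 0.33), Phlda2 (-0.75, SE 0.42), Asb4 (-0.53, SE 0.33) and Sgce (-0.33, SE 0.10), and Ddc came to 0.00387. Across members the median SD of log2 CPM was 0.14 in WT and 0.21 in mutants, and 0.12 and 0.17 across all genes tested.

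These 2 libraries also differed in cell type markers. Somite markers summed to 674 CPM in mutant replicate 2 and 104 CPM in replicate 3, and tailbud and presomitic mesoderm markers to 530 and 1147 CPM. Primitive erythroid markers summed to 4354, 9024 and 3725 CPM in WT replicates 1 to 3 and to 1780, 10268 and 2875 CPM in mutant replicates 1 to 3. Of the 7 tested erythroid markers 0 passed and all 7 had negative log2 fold changes. Visceral yolk sac endoderm markers summed to 12.2 to 12.7 CPM in WT and 7.77 to 10.6 CPM in mutants, without overlap. Of these 8 tested markers 7 had a negative log2 fold change and 0 passed.

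The hindgut endoderm, notochord and endothelium marker lists had mostly negative differences between the genotypes. Of 12 hindgut endoderm markers all 12 had a negative log2 fold change (median -0.54), 8 did not overlap between groups, and 2 fell, the hedgehog ligand genes Shh and Ihh (edgeR adjusted p = 0.0438 for both), although leaving out any 1 library kept at most 1 gene of the whole table called lower. Of 8 notochord markers 7 were negative (median -0.51), 4 did not overlap, and 1, again Shh, fell. All 12 endothelial markers were negative (median -0.19), with 1 not overlapping and 0 called. Over all genes tested, 7.68% did not overlap between groups (4.42% lower in mutants), and 0.0194% were called lower. The summed levels of these 3 lists overlapped between groups, at 564 to 727 CPM in WT and 479 to 674 CPM in mutants for hindgut, 210 to 245 CPM and 124 to 228 CPM for notochord, and 618 to 704 CPM and 523 to 723 CPM for endothelium. The highest endothelium sum was that of mutant replicate 3. Other lists did not go the same way. Somite markers had 9 positive and 3 negative log2 fold changes (median 0.24), neural tube markers 6 and 3 (0.06), and neural crest markers 5 and 2 (0.05). Tailbud and presomitic mesoderm markers had 6 and 6 (0.00), lateral plate mesoderm markers 4 and 5 (-0.03), and neuron markers 3 and 6 (-0.11). The part of these marker differences in the levels of the imprinted genes was not tested.

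Lists of genes around the imprinting system held 0 genes past the test. Of 32 further imprinted genes tested, 0 passed, 13 had a positive and 19 a negative log2 fold change (median -0.04), and the smallest p values belonged to Qpct (-0.69, SE 0.29) and Cobl (-0.41, SE 0.20). Of 26 tested genes that maintain imprints or DNA methylation, such as Dnmt1, Zfp57 and Trim28, 0 passed and the median was 0.04. The pair with the smallest p were Smchd1, a chromatin protein of imprinted clusters (0.15, SE 0.07), and Setdb1, a histone methyltransferase (0.09, SE 0.06). Of 20 IGF signalling genes 0 passed (median 0.00), and the smallest p belonged to Pappa2, a protease of IGF binding proteins at 0.0773 ± 0.0808 CPM in WT and 0.498 ± 0.416 CPM in mutants, and Igfals, which stabilises circulating IGFs (log2 fold change -0.62, SE 0.39). Of 10 genes of the Magel2 ligase complex and its endosomal targets 0 passed (median 0.01), with Usp7 and Washc2 at 0.07 (SE 0.07) and 0.06 (SE 0.07).

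Per kilobase of exon (GENCODE M21 exon lengths, which may differ from those of the annotation used for counting), the members spanned a wide range of levels in WT tailbuds. H19 stood at 2577 ± 256 CPM per kilobase (SD, n = 3), then Igf2 at 673 ± 61.8 and Mest at 504 ± 14.2. Peg10 at 226 ± 16.3 and Grb10 at 211 ± 12.2 followed and did not differ beyond their spread. Magel2 was 22nd of the 36 at 8.03 ± 1.52 CPM per kilobase in WT and reached 14.4 ± 1.11 in mutants. In both genotypes it was below Ndn (35.5 ± 0.929 in WT, 36.5 ± 4.43 in mutants) and Peg12 (15.9 ± 0.715 in WT, 17.8 ± 1.42 in mutants). At the low end were Usp29 (0.0541 ± 0.00739), Kcnq1 (0.203 ± 0.0104) and Ascl2 (0.354 ± 0.131).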

How the data were processed

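RNA of 6 tailbud libraries was sequenced, and the authors deposited raw counts per gene, 1 file a library. Per the submitters' processing notes the build was mm9 and the tools were STAR 2.5.2b, DESeq2, SAMtools, CASAVA and bcl2fastq 2.17.1.14. The sources used here do not name the counter, its strand setting or the annotation. GENCODE M21 named 32620 of 37310 identifiers. All identifiers on chromosomes X and Y and the mitochondrial genome are listed at 0.

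The filterByExpr rule (at least 10 counts, total 15) left 15471 genes, which were tested with edgeR 4.0.16 in R 4.3.3 (TMM, robust, glmQLFTest, two-sided, Benjamini-Hochberg over all genes, threshold 0.05). The SE is the log2 fold change divided by the square root of F. Alternatives were DESeq2 1.42.0, limma-voom 3.58.1, other scaling factors, filters and dispersions, a replicate block and leaving out each library.

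Same-number libraries of both groups deviated together (correlations 0.194, 0.144 and 0.275 over 15471 genes), but so did WT replicate 1 and Sd/Sd replicate 2 (0.182). The labels name no shared litter or day, so these values alone do not establish that the numbers pair the libraries. The main test used no pairing, and the block on the replicate number was only an alternative.

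Described in full were H19, Igf2, Magel2, Ndn, Mkrn3 and Peg12, members with an unadjusted p under 0.05 or no overlap between groups, and the smallest p of each cluster; from other lists, genes past the threshold or the 2 smallest p. Other members were named after their values were seen. The members and lists were chosen with earlier results of these data known. Sets were described by counts and medians, with no set test.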

Additional observations from a re-analysis of the deposited data

How the results depend on the processing

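Over all genes, 9 passed (6 higher, 3 lower). DESeq2 called 34 (19 higher, 15 lower), no filter on low counts 14 (5 lower), and limma-voom 3 (3 higher, 0 lower), as did dispersions without the robust option (3, of which 3 higher and 0 lower). Leaving out 1 library gave 2 to 6 genes, 2 to 5 higher and 0 to 1 lower. Of the imprinted members 0 passed with edgeR, and 1, Magel2, with DESeq2 (log2 fold change 0.84), with no filter on low counts (0.84) and without WT replicate 3 (1.00); leaving out 1 library gave 0 to 1 members.

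With the replicate block 12 genes and 0 members passed, Magel2 had a log2 fold change of 0.85 (edgeR adjusted p = 0.135), and the block changed no call on a member. The median over paternally expressed members ran from 0.0438 to 0.13 when 1 library was left out, and that over maternally expressed members from -0.07 to 0.12. Of 280 recomputed log2 fold changes of the 20 members described in full, 264 kept their direction and side of the threshold, 3 passed it (Magel2) and 13 turned sign, all when 1 library was left out: Igf2 from -0.0338 to 0.13, Mkrn3 from -0.13 to 0.17, Ndn from -0.0598 to 0.11, Igf2r from -0.0510 to 0.42, Commd1 from -0.00205 to 0.10, Nnat from -0.19 to 0.11, Impact from -0.0688 to 0.0912 and Zdbf2 from -0.0257 to 0.17. The lowest values of Igf2, Igf2r, Commd1, Impact and Zdbf2 and the highest of Nnat came without mutant replicate 3, and the lowest of Ndn and Mkrn3 without mutant replicate 2. The cause was not tested. Depth limits Ascl2, Kcnq1, Usp29 and Slc22a18, which rest on few counts, and Slc22a3 rests on 87 to 188 counts a library.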
